A study of Mus musculus with 27 samples.

Results

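The comparison described here is the step from epiblast-like stem cells (EpiSC) to early mesoderm (M) in a mouse differentiation series. The series starts from embryonic stem cells (ESC). After M it divides into 5 parallel intermediate mesoderm conditions (IM1 to IM5), and induced Sertoli-like cells (iSLC) were made from IM3. The 3 libraries titled as M with the FLyB medium and the 3 libraries titled EpiSC were taken, 6 of the 27 libraries and 2 of the 9 groups of the series. EpiSC were grown for 60 h in N2B27 medium without vitamin A, with Activin A at 20 ng/ml, bFGF at 12 ng/ml and 1% knockout serum replacement (KSR). M cells were EpiSC moved for 36 h to CDM-PVA, a chemically defined medium, with bFGF at 20 ng/ml, BMP4 at 10 ng/ml and LY294002 at 10 µM, an inhibitor of phosphoinositide 3-kinase (PI3K). All libraries came from 1 XY line, clone 7, of an F1:C57BL/6 x CBA background that carries Tesco-CFP, a fluorescent reporter of a *Sox9* enhancer, and R26-rtTA, so both groups share 1 clone and both transgenes. Time, the basal medium, the bFGF dose, the loss of Activin A and serum replacement, BMP4 and LY294002 all changed together between the groups. Their parts in a difference cannot be told apart.

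In the embryo, epiblast cells enter the primitive streak, lose their epithelial contacts and leave as mesoderm. BMP4, FGF and Wnt signals are among those that drive this step, and the T-box and bHLH factors *T*, *Tbx6*, *Mesp1* and *Msgn1* mark its stages. Nodal and Activin signals can also hold epiblast cells in their state or direct them to endoderm. PI3K makes a membrane lipid that activates the kinase Akt, which in turn keeps FoxO transcription factors out of the nucleus and feeds into growth and metabolism.

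RNA was measured per gene as RSEM's estimated counts, which summed to between 61504816 and 69551156 in the EpiSC libraries and between 51413455 and 59188377 in the M libraries. Levels of 1 gene are given below as normalized read counts, that is counts scaled to the mean effective library size, and levels of different genes are compared only in TPM, RSEM's transcript abundance scaled to a fixed total, which is per length. Nothing in the labels says that the 3 libraries of a group came from separate cultures, although the study calls them biological replicates. The p-values rest on a spread between replicate libraries that was estimated over all groups together, not on that of EpiSC and M alone. That spread may be technical. The EpiSC libraries were alike (chi-square per degree of freedom of each pair 5.28 to 6.52), whereas M replicate 2 lay farther from M replicates 1 and 3 (29.8 and 38.5) than those did from each other (7.07). Adult red blood cell genes, 6 of 6 of which were higher in M at an adjusted p of at most 0.01, summed to 0.589 to 0.866 CPM (counts scaled to a fixed library total) in EpiSC and 12.5 to 21.3 CPM in M. The trend of counts with the GC content of genes ran from −0.025 to 0.105 (log2, high against low GC) in EpiSC and from −0.342 to −0.21 in M. Red blood cell genes summed to 4.02 to 27.6 CPM over the ESC, IM3 and IM4 libraries. Over the IM1, IM2, IM5 and iSLC libraries they summed to 0.375 to 1.38 CPM. The GC trend ran from −0.377 to −0.041 over the former libraries and from −0.096 to 0.382 over the latter. For the red blood cell genes EpiSC and M thus lay on different sides of a split that did not follow the stages. The part of M replicate 2, the red blood cell genes and the GC trend in the results was not tested, beyond the values given without M replicate 2 and with a GC correction.

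Of 20839 genes tested, 1414 (6.79%) were higher in M and 1609 (7.72%) were lower by edgeR's quasi-likelihood test, with an adjusted p no greater than 0.01, a change of 2-fold or more, and 100 or more normalized reads on average both over all libraries and in EpiSC or M. Such genes are called differentially expressed (DE) below, and "rose" and "fell" refer to them unless another rule is named. At the adjusted p alone, 5930 genes (28.5%) were higher and 6865 (32.9%) lower, and the median log2 fold change of all genes was −0.06. All counts of list members below are to be read beside these shares of all genes. Without M replicate 2, 1453 genes were DE higher and 1627 DE lower. With a GC offset, 1403 were DE higher.

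**Figure D1:**
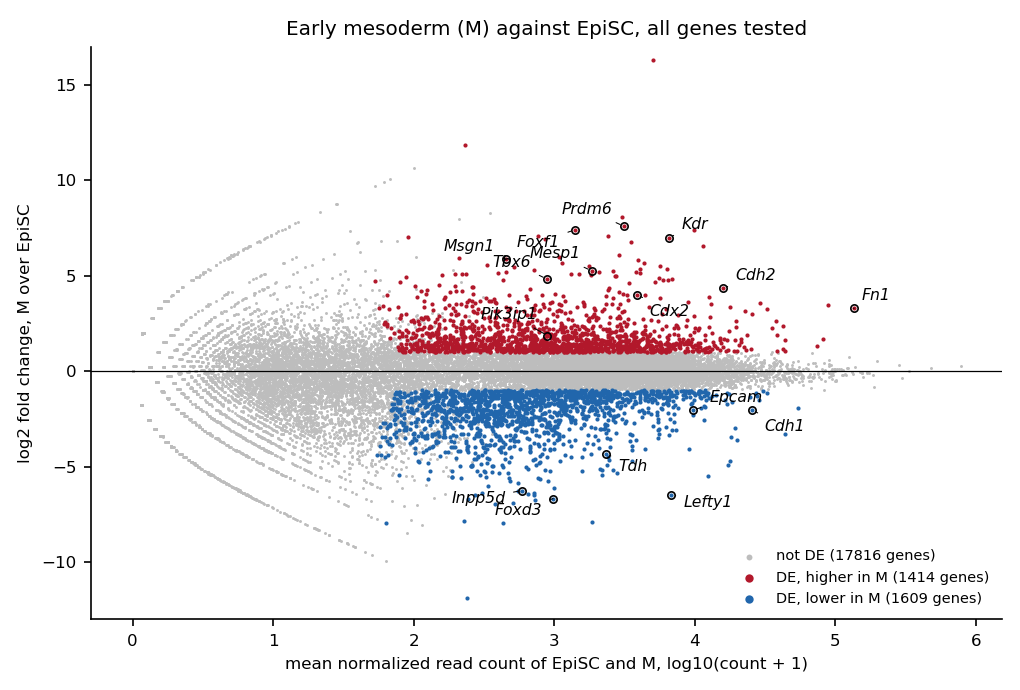
Each point is 1 of the 20839 genes tested, by the mean normalized read count of EpiSC and M (log10 of count + 1) and the log2 fold change of M over EpiSC, with the 1414 genes DE higher in red, the 1609 DE lower in blue and some named genes circled. The mesoderm markers lie between 4.01 and 5.87, *Cdh2* at 4.35 and *Lefty1* at −6.48.

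The genes with the greatest rises held regulators of mesoderm, vessels and body axis. *Unc5c*, a netrin receptor (log2 fold change 8.10 ± 0.15 SE), went from 24.6, 23.6 and 18 normalized reads in EpiSC to 6185, 5459 and 6560 in M. *Prdm6*, a PR-domain repressor (7.6 ± 0.12), went from 26.4, 31.4 and 37.8 to 6390, 6166 and 6119. The forkhead factor *Foxf1* of lateral mesoderm (7.41 ± 0.20), the LIM homeobox factor *Isl1* (7.11 ± 0.14), the BMP-binding protein *Bmper* (7.11 ± 0.12), *Hoxb6* (7.06 ± 0.43), the VEGF receptor *Kdr* (7.00 ± 0.097) and the ligand *Bmp5* (6.93 ± 0.20, with 46.7% of its exons inside another gene) followed, together with *Gm45889* (7.42 ± 0.19), a gene without a known role. The list is headed by *Hbb-bs*, an adult beta-globin, which had no count in any EpiSC library and 323, 500 and 558 normalized reads in M, at least 169-fold higher against a floor of 3 counts per library. It is 1 of the red blood cell genes above. Its mean was also 393 in ESC, 236 in IM3 and 298 in IM4, and 0 to 3.06 over IM1, IM2, IM5 and iSLC. Its presence is therefore not particular to M.

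Among the greatest falls were genes of germ cells, membranes and the epiblast. *Slc5a11*, a sodium-coupled inositol transporter (−7.96 ± 0.30), went from 874, 848 and 848 normalized reads to 0, 3.57 and 6.17, and *Foxd3*, a forkhead factor needed in the epiblast (−6.68 ± 0.19), from 1852, 1981 and 1989 to 20.9, 19 and 16.4. *Khdc3*, a gene of oocytes and early embryos with 38.5% of its exons inside another gene (−7.97 ± 0.62), *Gpx2*, a glutathione peroxidase (−6.96 ± 0.25), *1700097N02Rik* (−6.93 ± 0.28, 35.1% of its exons inside another gene), the glutamate receptor *Grm6* (−6.73 ± 0.24, 11% of its exons inside another gene), the acyloxyacyl hydrolase *Aoah* (−6.72 ± 0.27) and the nephrin relative *Kirrel2* (−6.50 ± 0.20) were the next in size. *Gm21887* (−7.85 ± 1.4) was uneven among the EpiSC libraries, at 331, 220 and 802 normalized reads. Its mean was 1.74 in ESC, 4.97 in IM3 and 2.72 in IM4. In IM1, IM2, IM5 and iSLC it was 460, 389, 743 and 62.1.

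Genes near silence in 1 group were counted in TPM. Below 1 TPM in every EpiSC library and at 10 TPM or more in every M library were 20 genes, 18 of them DE. They included *Prdm6* (0.38 to 94.8 TPM), *Kdr* (0.437 to 58.4), *Fgf10* (0.397 to 45.3), *Bmper* (0.237 to 34.2), *Foxf1* (0.183 to 32.3), the vessel adhesion receptor *Adgra2* (0.857 to 27.7), the semaphorin and VEGF co-receptor *Nrp1* (0.553 to 26.5), *Isl1* (0.19 to 23.7) and *Tbx20* (0.367 to 23.6). The gene of the 20 with the highest level in M was *AY036118*, at 0 TPM in EpiSC and 361 in M. Its log2 fold change of 16.3 was the highest of all genes tested. It is not among the greatest rises above, which follow the naming rule given below. The source of its reads was not tested. In the other direction were 43 genes, 41 of them DE. Germ-cell and meiosis genes stood among these, with *Hormad1* at 19 and 0.37 TPM, *Hormad2* at 13.7 and 0.413, *Meioc* at 12.4 and 0.79 and the egg coat gene *Zp3* at 11.7 and 0.137 in EpiSC and M.

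The 4 mesoderm markers were all high in M. *Tbx6*, a T-box factor of paraxial mesoderm, was at 65.1, 63.8 and 51.5 normalized reads in EpiSC and at 1636, 1771 and 1721 in M (log2 fold change 4.83 ± 0.15). *Mesp1*, a bHLH factor of nascent and cardiac mesoderm, was at 107, 82.4 and 92.7 and then at 3548, 3998 and 3272 (5.26 ± 0.11). *Msgn1*, a bHLH factor of presomitic mesoderm, was at 13.2, 17.7 and 14.6 and then at 794, 1046 and 834 (5.87 ± 0.25). The M libraries lay above every EpiSC library for each of these, and M replicate 2 was the highest M library for all 3. *Cdx2*, a caudal homeobox factor of the posterior body, was at 473, 441 and 446 and then at 6779, 7919 and 7179 (4.01 ± 0.083). In IM1, 1 of the 5 parallel conditions that followed M, the means were 47 for *Tbx6*, 14.8 for *Mesp1*, 0.552 for *Msgn1* and 7600 normalized reads for *Cdx2*. In that condition *Cdx2* stayed near its M level while the other markers were far below theirs. The study places *Cdx2* among the genes most different between IM1, IM2 and IM5 and IM3 and IM4, so IM1 does not stand for all 5.

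**Figure D2:**
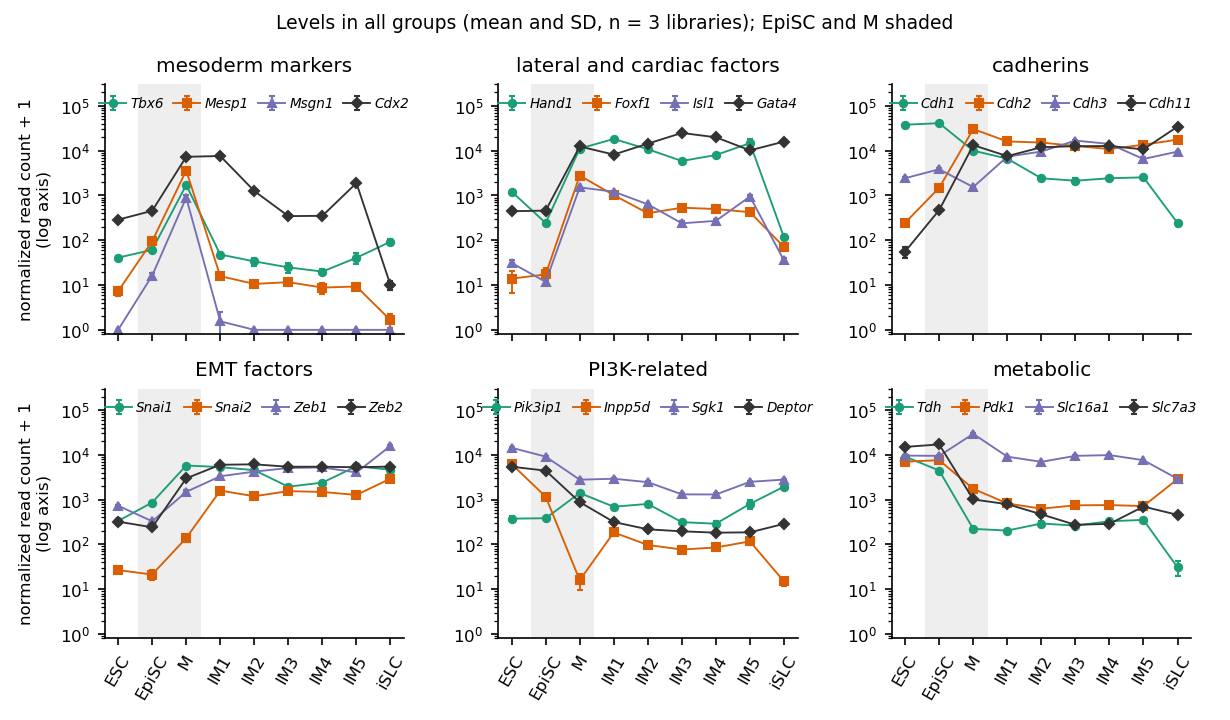
Normalized read count + 1 (log axis) of 4 named genes in each of 6 panels over the 9 groups, as means with bars of the SD (n = 3 libraries, the lower bar shortened where the SD nears the mean) and with EpiSC and M shaded. *Tbx6*, *Mesp1* and *Msgn1* stand high in M, at means of 1710, 3606 and 892, while *Cdx2* is also high in IM1, and *Inpp5d* drops to 14.9 in M.

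Of 30 further factors of the primitive streak and mesoderm, 15 rose and 5 fell (background 6.79% and 7.72% of all genes), with a median log2 fold change of 1.53. The clearest group was the lateral, extraembryonic and cardiac factors, 10 of 11 of which rose. *Hand1* went from a mean of 242 to 11132 normalized reads, *Gata4*, a zinc finger factor of heart and gut, from 458 to 12399, and the T-box factors *Tbx3* and *Tbx20* from 192 to 7989 and from 82.4 to 5663. *Nkx2-5*, the homeobox factor of committed heart cells, was the member that did not rise, at 26.9 and 5.78 normalized reads. Of the 8 posterior and paraxial factors, *Foxc1* rose (2.80 ± 0.12) and *Tcf15* (−2.74 ± 0.16) and *Cdx1* (−1.72 ± 0.22) fell, and *Mesp2*, at 38.4 and 577 normalized reads, passed the adjusted p but not the minimum of 100 reads over all libraries. Of the 5 factors of the anterior streak and node, *Foxa2* (−3.04 ± 0.095), the BMP antagonist *Chrd* (−2.87 ± 0.099) and *Gsc* (−2.59 ± 0.16) fell, and *Lhx1*, which also marks lateral and intermediate mesoderm, rose (1.57 ± 0.14). Among the pan-streak factors *Mixl1* (2.25 ± 0.066), *Evx1* (1.85 ± 0.068) and *T* (1.05 ± 0.11) rose, and *T* was at 0.99, short of the fold minimum, without M replicate 2.

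*Hox* genes, which pattern the body axis, were mostly higher in M. At the adjusted p alone 33 of 39 were higher in M and 1 was lower, against 28.5% and 32.9% of all genes, and 18 of them passed the read minimum as DE. All 15 genes of paralog groups 1 to 5 and all 12 of groups 6 to 9 were higher, against 6 of 12 of groups 10 to 13. Levels were low in EpiSC and stayed modest in M. *Hoxb8* was at 7.92, 9.81 and 15.5 normalized reads in EpiSC and at 352, 456 and 341 in M, and *Hoxb6* at 0, 2.94 and 0.859 and then at 152, 250 and 135. The 5′ gene *Hoxa13* was the posterior member called DE, at 24.6, 19.6 and 15.5 and then at 376, 356 and 394. *Hoxb13* was the member lower in M, at means of 8.19 and 1.1 normalized reads. M replicate 2 was highest for *Hoxb6* and *Hoxb8* and lowest for *Hoxa13*, with no overlap of the groups in any of the 3.

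Of 34 pluripotency factors 25 fell and none rose (7.72% and 6.79% of all genes), with a median log2 fold change of −3.10. *Utf1*, a chromatin factor of pluripotent cells, went from 23208, 26014 and 23345 normalized reads to 611, 461 and 544 (−5.49 ± 0.15). *Otx2* went from a mean of 6704 to 445 and *Pou3f1* from 4057 to 506, both factors of the primed epiblast. Of the core group, *Dppa2* (−5.45 ± 0.11) and *Dppa4* (−4.65 ± 0.15) also fell, and of naive-state genes *Tcl1*, a coactivator of Akt (−5.67 ± 0.34), *Nr0b1* (−5.47 ± 0.31), *Esrrb* (−3.60 ± 0.094) and *Klf2* (−3.56 ± 0.14). The other 9 were not DE. Among them *Sall4* (0.31 ± 0.064), *Lin28a* (0.44 ± 0.059), *Lin28b* (0.10 ± 0.09) and *Tead2* (0.66 ± 0.065) were within 2-fold of their EpiSC levels, as were *Sox4* (0.29 ± 0.091, with 54.6% of its exons inside another gene), *Klf4* (0.22 ± 0.14) and *Klf5* (−0.22 ± 0.12), and *Prdm14* was scarce at 88.9 and 35.6 normalized reads. The de novo DNA methyltransferases fell, *Dnmt3b* from 86073 to 22973 and *Dnmt3a* from 27757 to 9235 normalized reads.

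Markers of other lineages were mixed (of all genes 6.79% rose and 7.72% fell). Of 11 neurectoderm markers tested, *Olig2* (−3.80 ± 0.15), *Sox1* (−3.46 ± 0.26) and *Irx3* (−1.49 ± 0.14) fell and none rose, and *Pax3*, at 18.3 and 141 normalized reads, passed the adjusted p alone. Of 12 definitive endoderm markers 2 rose and 4 fell. *Cer1* (1555, 1281 and 1399 to 18.7, 9.52 and 21.6) and *Trh* (mean 33541 to 1089) fell, and the trypsin inhibitor *Spink1* (4.43 ± 0.23, 22.4 to 492) and the chemokine receptor *Cxcr4* (3.13 ± 0.11) rose. *Sox17* was at means of 451 and 355. Of 8 germ cell precursor markers 4 fell, led by *Dppa5a* (34026 to 1306), and none rose. Of 10 trophoblast and amnion markers 5 rose and 3 fell, and 2 of those that rose, *Hand1* and *Isl1*, are also on the mesoderm list. *Gata3* (59 to 713) and *Plac1* (82.1 to 1021) rose and *Ascl2* (707 to 50.1) and *Krt7* (1254 to 142) fell. Of 10 fibroblast markers *Col1a1* and *Pdgfrb* rose and *Thy1*, *Col3a1* and *Acta2* fell.

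Of 15 endothelial and blood progenitor markers 2 rose and 3 fell (6.79% and 7.72% of all genes), and 7 did not pass the adjusted p. The median log2 fold change was 0.0. *Kdr*, which marks lateral mesoderm before vessels and blood form, was at 103, 95.2 and 105 normalized reads in EpiSC and at 13438, 11957 and 13598 in M. *Runx1* rose from 187, 182 and 177 to 680, 523 and 694 (1.80 ± 0.13). No other of the 15 members rose. *Pecam1*, an endothelial adhesion molecule that pluripotent cells also carry, fell from 1770, 1770 and 1777 to 104, 88.1 and 118 (−4.09 ± 0.13), and *Tek* (−3.61 ± 0.19) and *Lmo2* (−2.15 ± 0.15) fell too. The vessel cadherin *Cdh5* (39.2 and 39) and the angioblast factor *Etv2* (206 and 219) were at like levels, and the embryonic globin *Hbb-y* had no count in either group. Summed adult red blood cell genes were also higher in M (12.5 to 21.3 CPM against 0.589 to 0.866), and their part in this list was not tested. In these bulk libraries, fewer cells of a type and less RNA per cell cannot be told apart.

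Of 43 epithelial adhesion genes 25 fell and 5 rose, with a median log2 fold change of −1.32 against −0.06 for all genes. E-cadherin, *Cdh1*, was at 41421, 41350 and 40322 normalized reads in EpiSC and at 10999, 8866 and 10105 in M (−2.04 ± 0.093). *Epcam*, an epithelial cell adhesion molecule, was at 15125, 15601 and 15775 and then at 3965, 3842 and 3490 (−2.04 ± 0.074). The groups did not overlap for either gene, and both stayed well above silence, at 60.8 TPM for *Cdh1* and 52.6 TPM for *Epcam* in M (239 and 206 TPM in EpiSC). P-cadherin, *Cdh3*, fell from 22.5 to 9.42 TPM (−1.32 ± 0.07) and *Nectin4* also fell, while *Nectin1*, *Nectin2* and *Nectin3* had log2 fold changes of 0.02, 0.43 and 0.21.

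Of 12 tight junction genes 8 fell, among them the claudins *Cldn3* (−2.37 ± 0.20), *Cldn7* (−1.87 ± 0.11), *Cldn4* (−1.26 ± 0.093) and *Cldn6* (−1.08 ± 0.074) and the scaffold *Tjp3* (−2.34 ± 0.13), while the scaffold *Tjp1* had a log2 fold change of 0.43 ± 0.073. Regulators of epithelial state moved most evenly. Of 14, 12 fell and 14 were lower at the adjusted p alone. These included the grainyhead factors *Grhl1* (−2.71 ± 0.12) and *Grhl2* (−2.40 ± 0.091), *Ovol2*, a repressor of *Zeb* genes (−2.59 ± 0.19), and the trafficking protein *Rab25* (−2.41 ± 0.20). They also held the splicing factors *Esrp1* (−1.68 ± 0.069) and *Esrp2* (−1.77 ± 0.12). Desmosome and keratin genes were the exception, with 5 of 10 higher. Desmoplakin, *Dsp*, rose from a mean of 5427 to 33748 normalized reads (2.64 ± 0.087), *Krt19* from 1926 to 8391, *Krt8* from 16153 to 60420, *Krt18* from 10046 to 32227 and desmocollin *Dsc2* from 694 to 1811. *Pkp3*, a plakophilin, fell (−2.10 ± 0.12).

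**Figure D3:**
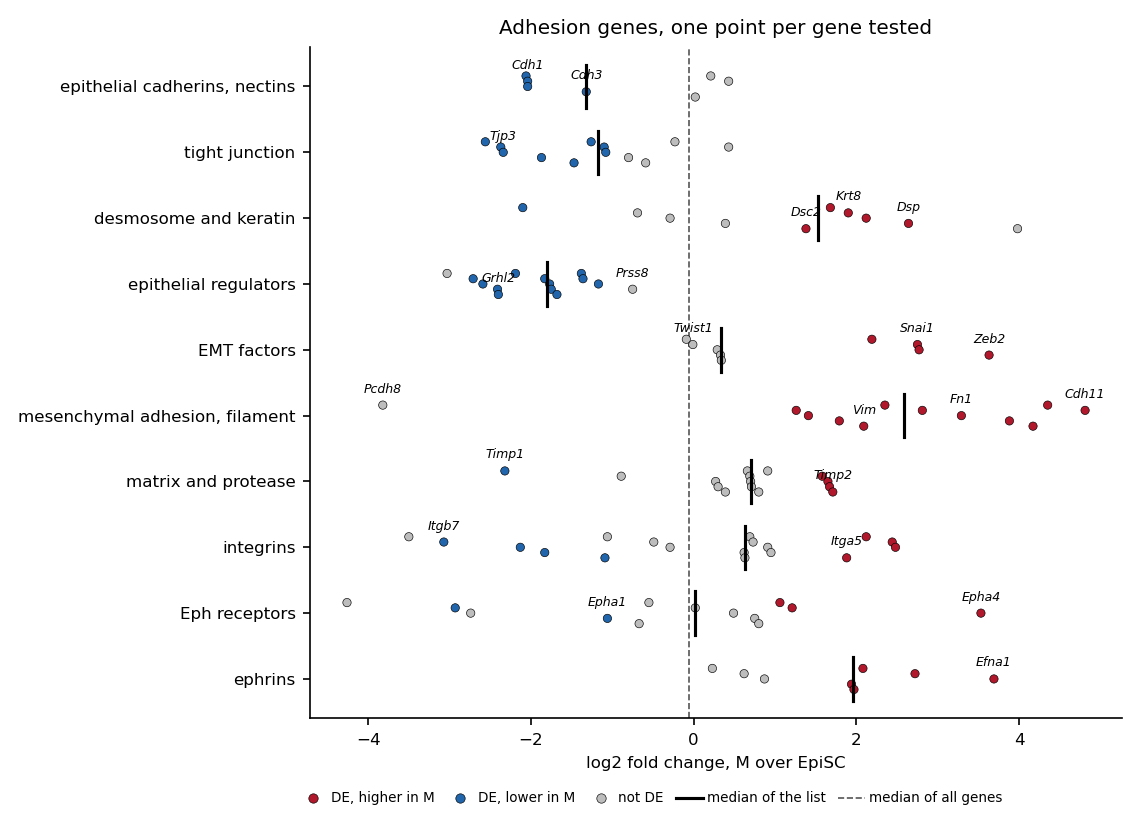
Log2 fold change of M over EpiSC (horizontal axis, 1 point per gene tested) for adhesion genes in rows by role, red for DE higher, blue for DE lower and grey for not DE, with the list's median as a black bar and that of all genes (−0.06) as a dashed line. Tight junction and regulator genes lie mostly below 0, *Krt8* and *Dsp* above it, and *Cdh11* reaches 4.81.

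Of 36 mesenchymal genes 19 rose and 1 fell, with a median log2 fold change of 1.33. N-cadherin, *Cdh2*, was at 1567, 1437 and 1445 normalized reads in EpiSC and at 30885, 28608 and 31496 in M (4.35 ± 0.068). In TPM it went from 9.16 to 202, so that in M it exceeded *Cdh1* at 60.8 TPM, whereas in EpiSC *Cdh1* was at 239 TPM. *Cdh11*, a mesenchymal cadherin, was at 509, 419 and 486 and then at 13154, 13100 and 13513 (4.81 ± 0.079), and *Cdh6* rose from a mean of 21.2 to 312. Per length, the order of these cadherins in EpiSC was *Cdh1*, *Cdh3*, *Cdh2* and *Cdh11* (2.4 TPM). In M it was *Cdh2*, *Cdh11* (69 ± 2.21 TPM, SD, n = 3), *Cdh1* (60.8 ± 8.7) and *Cdh3* (9.42 ± 0.404), where *Cdh11* and *Cdh1* did not differ beyond their spread.

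Of the 9 factors known for driving the loss of epithelial state, 4 rose. *Snai1*, a zinc finger repressor of *Cdh1*, was at 865, 888 and 825 normalized reads and then at 5915, 5746 and 5666 (2.75 ± 0.10), and *Zeb2* at 257, 224 and 240 and then at 3131, 2787 and 3015 (3.63 ± 0.093). *Snai2* (20.3 to 138) and *Zeb1* (327 to 1491) rose as well, and *Twist1* was at 520 and 518. Of 12 adhesion and filament genes 11 rose, including vimentin, *Vim* (6701 to 28501), and fibronectin, *Fn1* (24970 to 244279), *Pcdh18* (303 to 5479) and *Flrt3* (438 to 3082). *Pcdh8*, a protocadherin of paraxial mesoderm, was lower at 596 and 41.9, and missed the read minimum over all libraries. Matrix genes moved less, with 4 of 15 higher (*Timp2*, *Lama1*, *Adam19* and the hyaluronan synthase *Has2*, log2 fold changes 1.58 to 1.71) and *Timp1* lower (−2.32 ± 0.09).

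Receptors for matrix and for neighbouring cells changed in both directions. Of 18 integrin genes 4 rose and 4 fell (6.79% and 7.72% of all genes). The fibronectin receptor chain *Itga5* rose from 3108, 3403 and 3209 to 11923, 11635 and 12163 (1.88 ± 0.043), with *Itgb8*, *Itga8* and *Itga9* at 2.48, 2.44 and 2.12. *Itgb7* (−3.07 ± 0.17), the hemidesmosome chain *Itgb4* (−2.13 ± 0.14), *Itga1* (−1.83 ± 0.12) and *Itgb3* (−1.09 ± 0.12) fell. Of the 8 ephrin ligands 5 rose and none fell, led by *Efna1* (185, 162 and 169 to 2138, 2394 and 2142). Of the 13 Eph receptors tested, *Epha4* (358, 370 and 385 to 4556, 3901 and 4395), *Ephb4* and *Ephb2* rose, and *Epha2* (11159, 11264 and 10407 to 1437, 1462 and 1416) and *Epha1* fell. The call of *Epha1* (−1.06 ± 0.048) was lost with a GC offset, at −0.95.

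Because *Snai* and *Zeb* repressors bind the E-box CAGGTG, promoters were searched for it (CAGGTG or CACCTG on the strand shown, a special case of the general E-box CANNTG). Windows of 300 bases, from 250 before to 50 after the gene's start, came from RefSeq, build GRCm38.p6, and were present for 26 of the 43 epithelial adhesion genes, *Cdh1* not among them. The table lists more than 1 start for 4163 of 27025 genes, among those shown *Crb3* and *Sesn1* with 2 each, and the first listed was used. The motif was in 17 of the 26 epithelial windows (65.4%), against 20% of 27025 genes with a window, 18.9% of the 13644 tested, 28.9% of the 1189 DE lower and 14.9% of the 1046 DE higher. Of the 17 epithelial genes with the motif 11 fell and 3 rose (*Dsp*, *Krt8* and *Krt18*), and of the 9 without it 5 fell and none rose. Of the 25 windows of mesenchymal genes 6 (24%) held it. Base composition was not matched between these sets. The match is a description of the letters and not of binding. Shown are 4 genes that fell and have several matches, and *Krt8*, which rose with 1 match, written 5′ to 3′ on the gene's strand with the matches in capitals: *Epcam* (chr17:87635729-87636028, plus strand, 2 matches), *Crb3* (chr17:57061951-57062250, plus, 4), *Ap1m2* (chr9:21312284-21312583, minus, 4), *Spint2* (chr7:29281928-29282227, minus, 3) and *Krt8* (chr15:102004293-102004592, minus, 1).
Epcam: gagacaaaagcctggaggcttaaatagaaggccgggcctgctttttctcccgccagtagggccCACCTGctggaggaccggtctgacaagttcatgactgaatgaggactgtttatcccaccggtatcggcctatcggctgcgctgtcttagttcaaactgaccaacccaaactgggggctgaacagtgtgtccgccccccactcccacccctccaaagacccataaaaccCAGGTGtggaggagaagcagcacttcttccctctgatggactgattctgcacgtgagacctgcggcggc
Crb3: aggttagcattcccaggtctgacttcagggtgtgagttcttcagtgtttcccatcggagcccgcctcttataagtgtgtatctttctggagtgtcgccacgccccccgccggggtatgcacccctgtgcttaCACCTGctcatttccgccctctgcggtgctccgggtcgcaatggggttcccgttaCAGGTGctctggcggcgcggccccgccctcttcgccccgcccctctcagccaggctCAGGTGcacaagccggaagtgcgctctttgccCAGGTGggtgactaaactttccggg
Ap1m2: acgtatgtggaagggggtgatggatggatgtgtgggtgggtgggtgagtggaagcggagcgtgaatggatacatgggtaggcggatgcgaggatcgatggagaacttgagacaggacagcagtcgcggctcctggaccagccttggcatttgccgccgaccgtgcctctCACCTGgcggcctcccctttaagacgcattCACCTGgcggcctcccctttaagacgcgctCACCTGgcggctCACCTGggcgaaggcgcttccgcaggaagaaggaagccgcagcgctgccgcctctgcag
Spint2: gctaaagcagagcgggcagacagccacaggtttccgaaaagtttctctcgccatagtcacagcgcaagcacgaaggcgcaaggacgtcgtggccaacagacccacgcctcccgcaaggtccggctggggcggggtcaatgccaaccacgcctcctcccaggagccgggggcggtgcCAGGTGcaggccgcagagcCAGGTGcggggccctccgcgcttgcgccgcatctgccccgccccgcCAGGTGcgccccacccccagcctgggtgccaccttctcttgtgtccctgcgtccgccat
Krt8: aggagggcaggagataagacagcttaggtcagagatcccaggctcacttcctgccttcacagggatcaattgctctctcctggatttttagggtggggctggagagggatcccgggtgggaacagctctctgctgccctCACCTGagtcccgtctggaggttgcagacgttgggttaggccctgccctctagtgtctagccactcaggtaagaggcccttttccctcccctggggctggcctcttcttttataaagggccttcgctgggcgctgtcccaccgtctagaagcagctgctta

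In these 5 genes the log2 fold changes were −2.04 ± 0.074 for *Epcam*, −2.19 ± 0.09 for the polarity protein *Crb3*, −1.83 ± 0.086 for the epithelial sorting adaptor *Ap1m2*, −1.38 ± 0.077 for the protease inhibitor *Spint2* and 1.9 ± 0.084 for *Krt8*.

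M cells were in a PI3K inhibitor, so the transcripts of the pathway itself were read next. Of 46 core genes 7 rose and 3 fell (6.79% and 7.72% of all genes), with a median log2 fold change of 0.16, and at the adjusted p alone 22 were higher and 12 lower (28.5% and 32.9% of all genes). None of the 4 class I catalytic subunits was DE. Their log2 fold changes were 0.83 ± 0.055 for *Pik3ca*, 0.24 ± 0.054 for *Pik3cb*, −0.16 ± 0.092 for *Pik3cd* and −3.12 ± 0.77 for *Pik3cg*, which was scarce at 13.5 and 1.42 normalized reads. Of the regulatory and adaptor genes, *Pik3r1* (0.15 ± 0.07), *Pik3r2* (−0.40 ± 0.074), *Pik3r3* (−0.79 ± 0.07), *Pik3r5* (−1.49 ± 0.25), *Pik3r6* (−2.52 ± 0.86) and *Pik3ap1* (1.82 ± 0.31) were not DE, the last 3 at means below 100 normalized reads in both groups. *Pik3ip1*, a membrane protein that inhibits PI3K, rose from 405, 372 and 373 to 1455, 1386 and 1369 (1.87 ± 0.11).

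The change of greatest size in the pathway was in *Inpp5d*, which encodes SHIP1, a lipid phosphatase that removes the 5-phosphate from the product of PI3K and is best known from blood cells. It was at 1178, 1220 and 1085 normalized reads in EpiSC and at 8.82, 14.3 and 21.6 in M (−6.26 ± 0.15). Its mean was 6213 in ESC, 75.9 to 184 over the IM groups and 13.9 in iSLC. Of the other 7 lipid phosphatases 2 rose, *Inpp4a* from a mean of 393 to 1808 and *Inpp5e* from 912 to 2577. The kinase *Sgk1* fell from 8824, 9172 and 9368 to 2895, 2669 and 2790 (−1.71 ± 0.059). *Phlpp2*, a phosphatase that acts on Akt (1.14 ± 0.06), and the class II kinases *Pik3c2a* (1.31 ± 0.095) and *Pik3c2b* (1.14 ± 0.11) rose. Of 12 mTOR complex genes 1 was DE (of all genes 6.79% rose and 7.72% fell). *Deptor*, an inhibitor of mTOR, fell from 4480, 4422 and 4407 to 933, 739 and 962 (−2.33 ± 0.083). *Mtor* itself was at 0.02 ± 0.056.

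**Figure D4:**
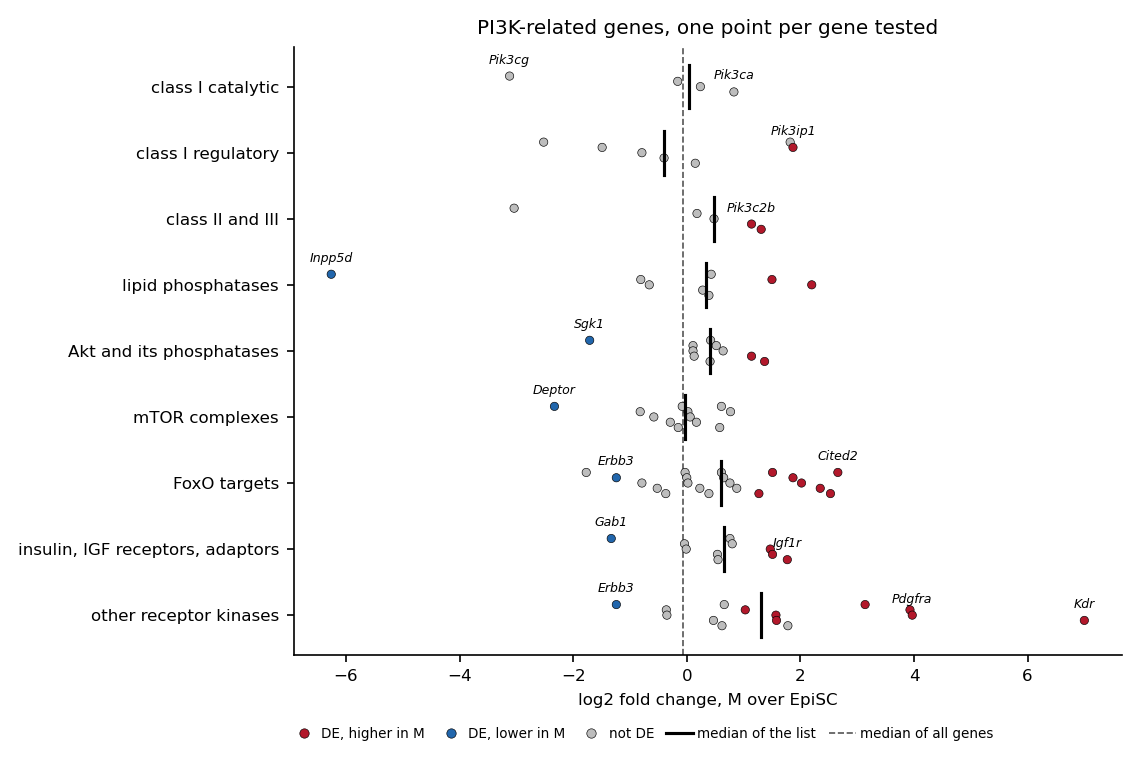
Log2 fold change of M over EpiSC (horizontal axis, 1 point per gene tested) for PI3K core genes, FoxO targets and receptors in rows by role, red for DE higher, blue for DE lower and grey for not DE, with medians as black bars and the median of all genes (−0.06) as a dashed line. Most core genes lie near 0 and *Inpp5d* at −6.26, while *Kdr* reaches 7.00 and *Pdgfra* 3.97.

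Of 14 receptor tyrosine kinases outside the insulin family 7 rose and 1 fell (6.79% and 7.72% of all genes). *Kdr* (7.00 ± 0.097) was followed by the PDGF receptors *Pdgfra*, at 404, 375 and 412 and then at 6285, 5771 and 6598 normalized reads (3.97 ± 0.097), and *Pdgfrb* (3.93 ± 0.08), then by *Fgfr3*, *Fgfr2*, *Erbb2* and *Egfr* (1.03 to 3.14, with *Egfr* not called without M replicate 1), while *Erbb3* fell (−1.24 ± 0.071). Of 19 insulin and IGF genes tested 5 rose and 3 fell. *Igf1r* was at 2951, 2955 and 2788 and then at 10136, 8639 and 10824, and *Insr* at 2816, 2654 and 2726 and then at 8204, 6638 and 8506, with M replicate 2 the lowest M library in both and no overlap. The binding proteins changed in opposite directions. *Igfbp4* rose from 1620, 1604 and 1581 to 23578, 24896 and 22611 (3.89 ± 0.08), and *Igfbp2* fell from 18869, 20883 and 19448 to 3265, 3787 and 3029 (−2.55 ± 0.11). The adaptor *Gab1* fell (−1.33 ± 0.051). *Igf2* was DE higher (1.61 ± 0.046), with 64.5% of its exons inside another gene, so its counts are uncertain.

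Of 25 FoxO factors and known FoxO targets tested 7 rose and 2 fell (6.79% and 7.72% of all genes). The targets that rose were *Cited2*, a coactivator (1271, 1374 and 1322 to 8760, 8171 and 8122), *Klf15* (168, 136 and 149 to 841, 924 and 866), the cyclin *Ccng2* (2.35 ± 0.08), the repressor *Bcl6* (2.02 ± 0.16), *Pik3ip1*, *Insr* and the stress protein *Sesn1*. The target that fell was *Erbb3* (−1.24). At the adjusted p alone 13 of the 21 targets tested were higher and 4 lower (28.5% and 32.9% of all genes). *Gadd45a* (−0.79) and *Sod2* (−0.52) were among those lower. Other targets stayed, such as *Sesn3* (−0.03 ± 0.068), *Cat* (0.00 ± 0.054) and *Fbxo32* (0.02 ± 0.12). Of the factors, *Foxo1* fell from a mean of 7336 to 1956 (−1.91 ± 0.06) and *Foxo3* was at 0.01 ± 0.039. The FoxO motif GTAAACA (or TGTTTAC on the strand shown) was in 3 of 21 windows of this list (14.3%) and in 3.55% of all 27025 windows. It was in 2.59% of genes tested, 2.29% of those DE higher and 1.93% of those DE lower, so DE genes held it no more often. Of the 3 listed genes with it *Sesn1* was DE, and *Txnip* (0.23 ± 0.056) and *Bcl2l11* (0.39 ± 0.051) were not. Of the listed genes with a window but no motif 5 rose and 1 fell. The window of *Sesn1*, at chr10:41810324-41810623 on the plus strand, is shown because that gene combines a match with a rise from 777, 741 and 715 to 1861, 1780 and 1755 normalized reads (1.27 ± 0.063). The match is in capitals.
Sesn1: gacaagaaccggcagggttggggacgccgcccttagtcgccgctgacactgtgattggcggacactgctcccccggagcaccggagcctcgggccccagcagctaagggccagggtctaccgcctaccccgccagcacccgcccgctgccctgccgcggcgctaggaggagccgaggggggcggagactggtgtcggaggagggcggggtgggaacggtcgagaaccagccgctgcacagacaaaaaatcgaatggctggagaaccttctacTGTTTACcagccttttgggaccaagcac

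Of 31 glycolysis genes 6 rose and 3 fell (6.79% and 7.72% of all genes), with a median log2 fold change of 0.29. The lactate transporter *Slc16a1* (9476 to 29403) and the glucose transporter *Slc2a3* (42641 to 106275) rose, as did *Pfkp*, a phosphofructokinase, from 1081, 784 and 900 to 1901, 1792 and 1991 (1.04 ± 0.085). The call of *Pfkp* was near the fold minimum, at 0.93 to 1.17 with 1 library left out, and was lost without EpiSC replicate 2 or without M replicate 3 and with a GC offset. The 6 glycolysis calls became 4 without EpiSC replicate 2 or with the GC offset. *Hk1* fell (−1.57 ± 0.069) and *Hk2* was at −0.74 ± 0.057. The main enzymes by level moved little, with *Ldha* at 0.41 ± 0.071, *Gapdh* at −0.20 ± 0.062 and *Pkm* at −0.04 ± 0.061. The kinases that block entry of pyruvate into the citric acid cycle divided, *Pdk1* falling from a mean of 7589 to 1744 and *Pdk2* rising from 158 to 371, and the opposing phosphatase *Pdp1* rose from 470 to 1050. Of 20 citric acid cycle enzymes *Idh1*, a cytosolic isocitrate dehydrogenase, rose (4872, 4467 and 4734 to 10976, 10957 and 10793), and no other was DE. None of 7 pentose phosphate genes or of 13 mitochondrially encoded genes was DE, with 1 and 2 higher and 4 and 5 lower at the adjusted p alone, where 28.5% and 32.9% of all genes passed. Among the mitochondrially encoded genes 1 was DE lower without EpiSC replicate 1, 1 lower without M replicate 1 and 1 higher without M replicate 3.

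Of 14 serine and one-carbon genes 4 fell (7.72% of all genes) and 13 were lower at the adjusted p alone (32.9%), with a median log2 fold change of −0.67. *Tdh*, threonine dehydrogenase, an enzyme of mouse pluripotent cells, was at 4583, 4467 and 4340 normalized reads and then at 238, 224 and 200 (−4.34 ± 0.097). *Phgdh*, the first enzyme of serine synthesis, was at 15027, 14897 and 13841 and then at 4892, 5678 and 4785 (−1.51 ± 0.074), and *Psat1* and *Mthfd1* fell by 1.15 on the log2 scale. Of 17 genes of the Atf4 amino acid response 8 fell and 1 rose. The amino acid transporters *Slc7a3* (17033 to 1008), *Slc7a5* (18691 to 7652) and *Slc3a2* (14281 to 7020) fell, with *Cebpb*, *Nupr1*, *Sesn2*, *Ddit4* and *Stc2*. The call of *Slc3a2* (−1.02 ± 0.055) was lost in 5 of 14 alternative fits. These were the fit without M replicate 3, that with only the 6 libraries (−0.98), and those with an offset for effective length (−0.97) or for GC, with or without a replicate block (−0.97). The lipoprotein receptor *Vldlr* rose (415, 346 and 380 to 3578, 3458 and 3558). *Atf4* itself was at −0.29 ± 0.049 and *Asns* at 0.29 ± 0.045.

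Of 26 cholesterol genes 1 rose and 1 fell (6.79% and 7.72% of all genes), and 17 were higher and 4 lower at the adjusted p alone (28.5% and 32.9%), with a median log2 fold change of 0.39. The rate-limiting enzyme *Sqle* was at 0.22 ± 0.036. The one DE rise was *Acat2* (1.04 ± 0.051). Of 13 fatty acid genes 4 rose and none fell. They were *Acss2*, which makes acetyl-CoA from acetate (291, 277 and 278 to 770, 810 and 848), the elongase *Elovl5* (1.25 ± 0.041) and the desaturases *Fads1* (1.22 ± 0.044) and *Scd1* (1.09 ± 0.043). *Fasn* was at 0.11 ± 0.068.

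**Figure D5:**
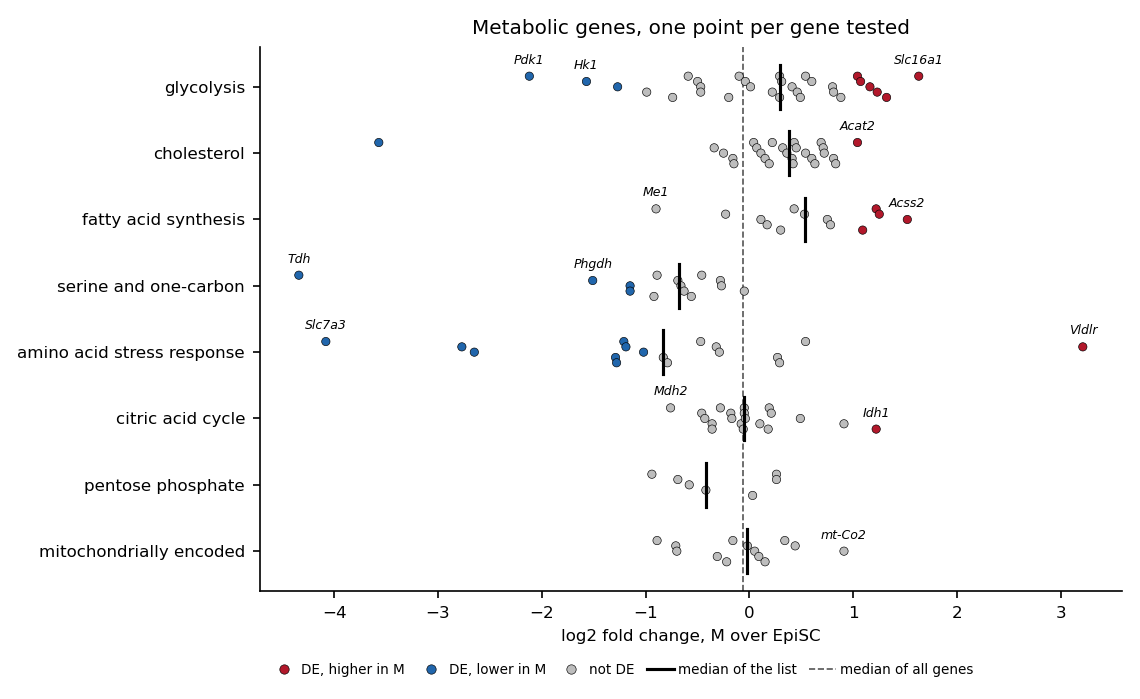
Log2 fold change of M over EpiSC (horizontal axis, 1 point per gene tested) for metabolic genes in rows by pathway, red for DE higher, blue for DE lower and grey for not DE, with medians as black bars and the median of all genes (−0.06) as a dashed line. Glycolysis and citric acid cycle genes lie around 0, serine and one-carbon genes lie below it with *Tdh* at −4.34, and fatty acid genes lie mostly above it.

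Of 27 BMP genes 16 rose and 1 fell (6.79% and 7.72% of all genes), with a median log2 fold change of 1.61. Of the ligands, *Bmp4* itself was at 267, 327 and 314 normalized reads in EpiSC and at 12481, 12489 and 12095 in M (5.35 ± 0.098), and *Bmp2* rose from a mean of 352 to 5778. Of the response genes *Id1* was at 232, 230 and 217 and then at 4363, 5420 and 4316 (4.37 ± 0.14), and *Msx2*, *Msx1*, *Smad6* and *Gata3* rose by more than 3 on the log2 scale. *Smad7* was at 0.07 ± 0.082. Of 21 Nodal and Activin genes 9 fell and 3 rose, and of their 10 receptors and mediators 7 were higher and 2 lower at the adjusted p alone. All 4 antagonists fell, *Fst* close to the fold minimum (−1.02 ± 0.10, and −1.05 to −0.97 with 1 library left out, the call being lost without M replicate 1), with *Lefty1* going from 13283, 14299 and 12822 to 155, 167 and 133 (−6.48 ± 0.13), and the ligands *Nodal* (11280, 11610 and 11132 to 1909, 2125 and 1938) and *Gdf3* (−5.35 ± 0.13) fell. *Gdf1* was DE lower, with 100% of its exons inside another gene, so its counts are uncertain. The cofactor *Cfc1* (4.06 ± 0.17), *Smad3* and *Acvr2a* rose.

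*Fgf10*, a ligand of lateral mesoderm, was at 61.6, 70.7 and 57.5 and then at 7357, 6431 and 6929 (6.77 ± 0.13), and *Fgf3* rose from a mean of 110 to 4060. *Fgf4*, a ligand of pluripotent cells, was at 2849, 3031 and 3109 and then at 155, 108 and 138 (−4.48 ± 0.11), and *Fgf5* fell (−3.30 ± 0.13). Of 24 genes of the FGF and ERK list 6 rose and 2 fell (6.79% and 7.72% of all genes). The feedback phosphatase *Dusp4* rose from 2607 to 12499, whereas *Spry1* was at 0.00 ± 0.077 and *Spry4* at −0.50 ± 0.085. Of 28 Wnt genes 11 rose and 5 fell. *Wnt5a*, a ligand used in cell movement, was at 222, 193 and 195 and then at 7334, 7226 and 7561 (5.18 ± 0.071), the secreted amplifier *Rspo3* rose from 168 to 5330 and the antagonist *Dkk1* from 250 to 1843, and *Wnt8a*, *Fzd8*, *Sfrp2*, *Lgr4* and *Cer1* fell. Of 13 Notch and segmentation clock genes 6 rose, among them *Dll1* (533, 548 and 534 to 3572, 3145 and 3561), *Hey1* (2.65 ± 0.11) and the retinoic acid hydroxylase *Cyp26a1* (1186 to 11242), and the retinoic acid synthase *Aldh1a2* was near the fold minimum (−1.01 ± 0.15), with −1.12 to −0.93 when 1 library was left out and the call lost without EpiSC replicate 3, M replicate 2 or M replicate 3, with a GC offset and with only the 6 libraries fitted, leaving no fall in the list.

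Of 16 p53 targets 8 fell and 1 rose, and 15 were lower at the adjusted p alone (32.9% of all genes). *Cdkn1a*, an inhibitor of the cell cycle, was at 8739, 9292 and 8508 normalized reads and then at 1254, 1180 and 1189 (−2.87 ± 0.071). The death-promoting genes *Pmaip1* (−2.64 ± 0.084) and *Eda2r* (−2.22 ± 0.098), the Akt inhibitor *Phlda3* (−2.19 ± 0.096) and *Ccng1* (−1.74 ± 0.056) fell, and *Trp53* was at −0.59 ± 0.051. *Sesn1*, which is also on the FoxO list, was the member that rose.

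Levels in the later groups are given as group means, with no test. *Zeb2* was at 2978 normalized reads in M and at 5272 to 6134 over the IM groups, *Cdh2* at 30330 and then 10883 to 16085, *Gata4* at 12399 and then 8181 to 24855, and *Tdh* at 221 and then 203 to 352. *Fgf10* was at 63.3 in EpiSC, 6906 in M and 274 to 1393 over the IM groups, and *Slc16a1* was at 9476 in EpiSC, 29403 in M and 6973 to 9851 over the IM groups. *Cdkn1a* was at 4992 in ESC, 8847 in EpiSC, 1207 in M and 10607 to 21170 over the IM groups, with M the lowest mean of these 8 groups. *Snai2* was at 20.3 in EpiSC, 138 in M and 1187 to 1591 over the IM groups, and *Cdh3* was at 3843 in EpiSC, 1538 in M and 6510 to 16780 over the IM groups. *Cdh1* was at 9990 in M, 2134 to 6633 over the IM groups and 242 in iSLC, while *Krt8* was at 60420 in M, 55684 to 98851 over the IM groups and 995 in iSLC.

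The mean length of a gene's transcripts, weighted by the amount of each transcript, was tested as a readout that does not use the gene's level. With limma, at an adjusted p of at most 0.01 and a change of at least 1.5-fold, 29 of 9380 genes (0.309%) were longer in M and 4 (0.0426%) were shorter. *Klf3*, a repressor of the Krüppel family, was at 2252, 2161 and 2258 bases in EpiSC and 4561, 4463 and 4703 in M (log2 change of length 1.04 ± 0.036), with no overlap, while its level was not DE (0.51). *Erc2* (1.20 ± 0.10), *Sap18* (1.16 ± 0.24), *Dmkn* (1.13 ± 0.21) and *Plekha4* (1.06 ± 0.16) were the others with the most lengthening. *Ccdc73* (−1.01 ± 0.20), *Map1a* (−0.69 ± 0.07), *Tmem79* (−0.64 ± 0.083, with 43.9% of its exons inside another gene) and *Sept1* (−0.63 ± 0.046) were shorter. Only 10 genes were longer with a minimum of 5 TPM and 19 when only the 6 libraries were fitted. Some lengths followed the split of the libraries seen for the red blood cell genes. The mean length of *Sap18* was 1745 in ESC, 2327 in IM3 and 2348 in IM4, near or above 1081 in EpiSC. In IM1, IM2, IM5 and iSLC it was 1299, 1331, 1378 and 1225. *Tomm20* and *Eif1ax*, also called longer, showed the same split. *Klf3* did not, at 4217, 4713, 4573 and 4303 in IM1, IM2, IM5 and iSLC. The GC trend given above also differed between the groups. The part of that trend and of the split in these lengths was not tested.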

How the data were processed

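Total RNA was extracted with TRIzol, made into TruSeq V2 libraries and sequenced as 75-base pairs on a HiSeq 4000. According to the study's methods and the labels, the authors trimmed reads with cutadapt 1.9.1, aligned them to GRCm38 with STAR 2.5.2a and deposited, for each library, expected counts, TPM and isoform-weighted transcript lengths per gene from RSEM 1.3.0, with Ensembl release 86 transcripts. The strand setting is not given in the sources used here, so reads of overlapping genes on opposite strands cannot be told apart, and larger exon overlaps are given beside the gene. Expected counts from paired reads are estimates that share reads among near-identical genes.

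Expected counts were rounded and tested with edgeR 4.0.16 in R 4.3.3 (quasi-likelihood test, TMM factors, filterByExpr, Benjamini-Hochberg adjustment over 20839 genes), fitted over all 27 libraries with 1 coefficient per group and no covariate, so that all groups share 1 estimate of the spread. The standard error of a log2 fold change was its size divided by the square root of the F statistic. Lengths were tested with limma 3.58.1 on the log2 scale, for genes with more than 1 transcript and a mean of at least 1 TPM in both groups. DESeq2 1.42.0 was an alternative, and the tests were also tried on simulated data. The 33 lists hold 645 genes, of which 639 were tested, and 6 had no count above the floor of 3 in any EpiSC or M library. No test of a list was made, and a list is described by its counts and median.

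The groups, the markers and the gene lists were chosen with earlier results of these data known. Named were the mesoderm markers, for DE genes whose EpiSC and M libraries did not overlap, the 10 with the highest and the 10 with the lowest log2 fold change (2 genes left out because over 50% of their exons lie inside other genes), up to 4 rises and 4 falls of each list, class I PI3K genes, cadherins, factors of epithelial to mesenchymal transition, rate-limiting enzymes and the 5 largest length changes each way. Other genes named, such as those switched on or off by TPM, were chosen after their values were seen. No block was used, because the study's methods compare replicate groups without naming one. The correlations of same-numbered EpiSC and M deviations were −0.053, 0.126 and 0.004, and those of other pairs −0.098 to 0.113. With 3 libraries per group they cannot show whether libraries were paired. A few genes that this rule would name are not reported here.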

Additional observations from a re-analysis of the deposited data

How the results depend on the processing

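The 1414 genes higher and 1609 genes lower in M became 423 and 720 with a fold of at least 4, 2237 and 3605 with no read minimum, and 4934 and 4711 with no fold minimum, and the 156 and 123 list members called (of 639 tested) became 92 and 72 with a fold of at least 4 and 269 and 202 with no fold minimum. Leaving out each library in turn gave 1399 to 1453 higher and 1575 to 1627 lower, and DESeq2 gave 1402 and 1600. With a replicate block the counts were 1416 and 1609, with the block and a GC offset 1402 and 1546, and with a GC offset alone 1403 and 1542, and the block left the length counts at 29 and 4. Longer genes numbered 10 with a minimum of 5 TPM, 52 with none, 19 with only the 6 libraries fitted and 681 with no minimum change, and shorter genes numbered 7 with RSEM's effective length, 1, 21 and 392 with a minimum of 5 TPM, no TPM minimum and no minimum change. Leaving out 1 library gave 22 to 30 longer and 4 to 6 shorter genes. Where only a threshold changed, the differences follow from the construction of each rule. The cause of the other differences was not tested. Of 291 list members and largest changes that were DE, 271 were DE in all 14 alternative fits, and 20 lost the call in at least 1. Besides *Aldh1a2*, *Pfkp*, *Slc3a2*, *Fst*, *Egfr*, *T* and *Epha1*, these were *Bax*, *Bmp6*, *Cldn6*, *Col3a1*, *Eno2*, *Ephb2*, *Pdp1*, *Spred1*, *Wnt5b* and *Zic2*, whose fold came below the minimum, and *Hoxb7*, *Hoxc4* and *Msgn1*, lost with DESeq2 alone although their log2 fold changes there were 4.79, 3.30 and 5.88. Of 66 counts of list members, 13 stayed within 1.5 times under every alternative, changes of the thresholds included. By the adjusted p alone, 228 of 243 named genes kept their direction and their side of 0.01 in all alternatives, and none of the 243 reversed. Among the 15 that did not keep their side were *Fasn*, *Pik3r2*, *Pik3r6*, *Sox4*, *Hes5*, *Ttr*, *Dcn*, *Pkp1*, *Met*, *Flt1*, *Tkt*, *mt-Nd4*, *mt-Co3* and *Fgf18*. Depth limits genes near 3 counts in 1 group, such as *Hbb-bs*, *Hoxb6* and *Khdc3*, whose fitted fold depends on the prior count.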
